A study of Mus musculus with 6 samples.

Results

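Gas5, Snhg1, Snhg3, Snhg5, Snhg6, Snhg7, Snhg8 and Snhg12 are host transcripts of small nucleolar RNAs (snoRNAs), and they were measured in 6 libraries of EML cells, mouse blood progenitors kept in culture with stem cell factor. They were chosen by name: each was the entry of the deposited tables whose RefSeq accession maps to the host itself, which gave 8 entries of 23146, and the snoRNAs inside them were kept apart. The series compares loss and gain of KAI1, the tetraspanin encoded by Cd82, with controls. The groups were the knockdown control (2 libraries), the KAI1 knockdown (2 libraries), the overexpression control (1 library) and the KAI1 overexpression (1 library). All 6 libraries came from 1 cell line labelled bone marrow, strain BDF1 and cell type basophil. The labels call the controls wild type and do not give the means of knockdown or overexpression, the time, or whether replicates come from cultures of their own. The p-values therefore cover the spread between libraries alone, and that spread may be technical.

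snoRNAs guide the chemical modification of ribosomal RNA, box C/D snoRNAs for ribose methylation and box H/ACA snoRNAs for pseudouridylation. In mammals most are cut from introns, and in these hosts the introns carry the conserved product while the spliced exons code for no known protein. Many hosts start with a terminal oligopyrimidine (TOP) tract, the element by which translation of ribosomal protein mRNAs follows growth signals. Spliced hosts engage ribosomes and are known substrates of nonsense-mediated decay, so their level can rise when translation slows. Gas5, growth arrest-specific transcript 5, takes its name from its abundance in growth-arrested cells, and its spliced RNA is known as a decoy that binds the glucocorticoid receptor.

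The starts of the hosts are shown because the TOP tract lies there. RefSeq windows on GRCm38.p6 were held for 7 of the 8 hosts, and each line gives 45 bases before the annotated start and 30 bases from it, 5′ to 3′ on the strand of the gene. Capitals mark a TATA motif, TATAAA or TATATA on either strand between 45 and 15 bases before the start, and a pyrimidine run, a C followed by at least 4 bases that are C or T and starting within 5 bases of the annotated start on the strand of the gene. Both motifs were chosen after the windows were seen, and a match is a description of letters. For Gas5 the second of its 2 windows is printed; the other, which starts at 161034601, held neither motif.

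Gas5, chr1:161035121-161035195, plus strand: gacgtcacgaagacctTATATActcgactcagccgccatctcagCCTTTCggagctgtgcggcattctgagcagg
Snhg1, chr19:8723442-8723516, plus strand: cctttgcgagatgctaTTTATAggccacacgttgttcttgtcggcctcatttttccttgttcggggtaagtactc
Snhg3, chr4:132353657-132353731, minus strand: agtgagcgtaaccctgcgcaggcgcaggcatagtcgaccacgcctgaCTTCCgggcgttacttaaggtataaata
Snhg5, chr9:88522868-88522942, minus strand: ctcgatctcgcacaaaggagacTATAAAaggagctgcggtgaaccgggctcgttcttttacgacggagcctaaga
Snhg7, chr2:26640215-26640289, minus strand: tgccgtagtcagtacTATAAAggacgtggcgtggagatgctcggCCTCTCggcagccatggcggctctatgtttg
Snhg8, chr3:123508307-123508381, minus strand: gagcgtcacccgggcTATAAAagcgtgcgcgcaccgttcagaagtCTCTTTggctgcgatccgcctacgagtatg
Snhg12, chr4:132308633-132308707, plus strand: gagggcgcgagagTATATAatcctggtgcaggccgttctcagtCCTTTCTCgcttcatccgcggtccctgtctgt

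A TATA motif stood in 6 of the 8 host windows (75%), against 3.5% of all 32851 windows of 27025 genes. A pyrimidine run stood in 5 of 8 (62.5%), against 18.3% of all windows and 36% of 25 windows of a list of cytosolic ribosomal protein genes, and 4 of 8 held both (50%), against 0.7%. The run was 8 bases in Snhg12, 6 in Gas5, Snhg7 and Snhg8, and 5 in Snhg3. In Snhg3 the letters TATAAA lay 22 bases after the annotated start instead of before it.

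The depth is not stated; relative to knockdown control replicate 1, the steps between low values put it at 0.52 to 1.36. The 2 knockdown controls differed from each other: 2142 of 10112 entries were at least 2-fold apart between them, a count that does not tell which of them stands apart. Cd82, the targeted gene (mm9 chromosome 2, 93259259 to 93310031), stood at 43.9 and 13.8 RPKM (reads scaled to transcript length and library size) in the knockdown controls, 7.65 and 6.91 RPKM with KAI1 knocked down, 11.9 RPKM in the overexpression control and 15.2 RPKM with KAI1 overexpressed, so it was lower in each knockdown library than in each control, and the difference did not pass (limma, log2 -1.64, adjusted p = 0.83). All 13 mast cell and basophil markers listed reached 1 RPKM. Their sum, mostly Mcpt2 and Cma1, was 77360 RPKM in control replicate 1 against 6328 to 25190 RPKM in the other 5 libraries. Mcpt8 (160 RPKM there against 116 to 3908 RPKM) and Prss34 (0.72 against 0.14 to 4.20 RPKM) were instead highest with KAI1 overexpressed. For 9 erythroid markers found the sum was 696 to 2803 RPKM in the other 5 libraries, mostly globin (Hbb-bt and Hbb-bs). It was 171 RPKM in control replicate 1, where Gata1 was the largest part. Hbb-bt stood at 57.5 RPKM in control replicate 1 against 624 to 2304 RPKM, and Hbb-bs at 2.36 against 22.4 to 435 RPKM. Of the 8 erythroid markers measured, 4 were lowest in control replicate 1. Gata1, an erythroid and mast cell transcription factor (87.3 RPKM against 32.3 to 53.5), and Epor, the erythropoietin receptor (15.6 RPKM against 2.27 to 14.8), were highest there. Of the lymphoid markers Cd3e, Ms4a1 and Rag1 were at 0 in all libraries, and 1 of 6 reached 1 RPKM. In bulk RNA, fewer cells of a type and less RNA per cell cannot be told apart.

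All 8 hosts were measured above 3 RPKM in every library. Snhg6 (mm9 chromosome 1, 9932106 to 9934199), the host of the C/D snoRNA Snord87, had the highest mean level, 157 ± 53.6 RPKM (SD, n = 6 libraries over all groups). It was followed by Snhg1 (chromosome 19, 8797977 to 8800816), which carries a cluster of C/D snoRNAs, at 132 ± 56.1 RPKM, and by Gas5 (chromosome 1, 162965297 to 162968668) at 106 ± 40.9 RPKM. Snhg8 (chromosome 3, 123210470 to 123211254), host of an H/ACA snoRNA, stood at 62.0 ± 13.2 RPKM. Snhg3 (chromosome 4, 131907848 to 131909601), host of the U17 snoRNAs that act in ribosomal RNA cleavage, stood at 60.5 ± 22.9 RPKM. The mean was 41.9 ± 15.3 RPKM for Snhg5 (chromosome 9, 88415891 to 88417735) and 36.7 ± 11.8 RPKM for Snhg12 (chromosome 4, 131864593 to 131866939). Snhg7 (chromosome 2, 26492696 to 26495764) was the lowest at 9.84 ± 3.72 RPKM.

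RPKM is per length, so the levels of different hosts can be set side by side. The order held in 6 of 6 libraries for Gas5 over Snhg8, Snhg3 over Snhg5 and Snhg12 over Snhg7. It held in 5 of 6 for Snhg6 over Snhg1 and for Snhg1 over Gas5, where the mean difference of 26.2 RPKM was smaller than its SD of 38.0 RPKM. Snhg8 and Snhg3 did not differ beyond their spread (difference 1.48 RPKM, SD 18.7, in this order in 3 of 6), nor did Snhg5 and Snhg12 (5.18 RPKM, SD 13.8, 4 of 6). For the 6 hosts with 1 accession and a matched GENCODE transcript length, the values correspond to an estimated 205 to 2203 reads a library. The lowest of these, 205 reads for Snhg3 in control replicate 1, has an exact Poisson 95% interval of 178 to 235 reads for counting error only, so counting error was small beside the differences between the knockdown controls in Snhg3.

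**Figure D1:**
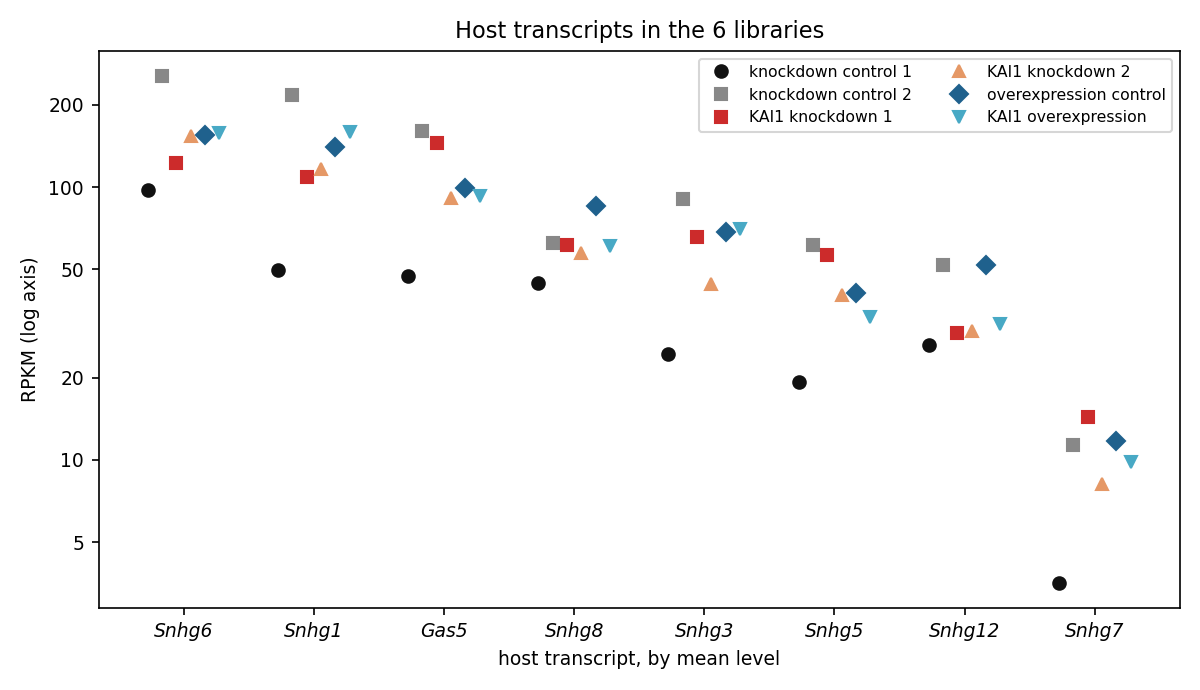
RPKM of each host transcript (log axis) in the 6 libraries, ordered by mean level; each point is 1 library. Knockdown control replicate 1 (black circles) is the lowest point for all 8 hosts, from 3.56 RPKM for Snhg7 to 97.5 RPKM for Snhg6.

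Control replicate 1 was the lowest of the 6 libraries for 8 of 8 hosts, where 28.6% of all 10112 entries averaging 1 RPKM or more were lowest there. Control replicate 2, of the same group, was the highest for 5 hosts (Snhg6, Snhg1, Gas5, Snhg3 and Snhg5), the overexpression control for 2 (Snhg8 and Snhg12) and KAI1 knockdown replicate 1 for 1 (Snhg7). Control replicate 2 lay at least 2-fold above control replicate 1, on the RPKM + 1 scale, for 6 of 8 hosts, where 8.50% of all entries did. The median difference between these controls was 1.53 on the log2(RPKM + 1) scale over the hosts and -0.0089 over all entries. It was 1.65 with quantile normalization and 1.54 with libraries scaled by the median of ratios, and control replicate 1 was the lowest for all 8 hosts under both. The high mast cell marker sum and low globin levels given above belong to the same library, and their part in this result was not tested.

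Snhg1 differed most between the controls, at 49.9 and 218 RPKM, a ratio of 4.37. Snhg3 followed at 24.5 and 90.4 RPKM (3.69-fold) and Gas5 at 47.2 and 161 RPKM (3.40-fold). Control replicate 1 stood clear of the other libraries too: the next lowest lay 2.29-fold above it for Snhg7, 2.19-fold for Snhg1, 1.94-fold for Gas5 and 1.80-fold for Snhg3. The difference was smallest for Snhg8, at 44.6 and 62.2 RPKM (1.39-fold). For Snhg12 the ratio was 1.97, but the next lowest library lay only 1.11-fold above control replicate 1.

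The knockdown comparison asked whether hosts differ between the KAI1 knockdown and its control, and no host did beyond the spread between replicates. limma, a linear model with a moderated variance fitted on log2(RPKM + 1) to the 10113 entries averaging 1 RPKM or more in these 4 libraries, called 0 of 8 hosts and 0.0297% of all entries (0 of 8 hosts also at an unadjusted p under 0.05, lowest 0.32). Hosts of the 2 groups overlapped in 8 of 8 cases, while among all entries the knockdown libraries were both higher than the controls in 21.5% and both lower in 17.0%. In 7 of 8 hosts both knockdown libraries lay between the controls, above control replicate 1 and below control replicate 2, a pattern of 14.5% of all entries. Snhg7 was the exception, with KAI1 knockdown replicate 1 above both controls.

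Gas5 stood at 47.2 and 161 RPKM in both controls, then 145 and 91.3 RPKM with KAI1 knocked down (means 104 ± 80.2 and 118 ± 37.7, SD, n = 2). Its difference was 0.39 on the log2 scale (SE 0.67, 95% interval -1.42 to 2.21, limma adjusted p = 0.899). Both knockdown libraries lay between the controls, so the sign of the difference is set by which control it is taken against. Against control replicate 2 alone the difference was -0.48 (adjusted p = 0.544), and against control replicate 1 alone 1.27 (adjusted p = 0.0992).

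Snhg1 stood at 49.9 and 218 RPKM in both controls, then 109 and 116 RPKM in the knockdown. Here the knockdown pair lay close together and the controls spread the widest of all hosts (difference 0.11, SE 0.75, adjusted p = 0.977). Against control replicate 2 alone it was -0.95 (adjusted p = 0.406). Against control replicate 1 alone the difference was 1.16 and passed (adjusted p = 0.0411), as did 10.3% of all entries in that fit. Then only the knockdown pair gives a spread, since 1 control is left.

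Snhg3 stood at 24.5 and 90.4 against 65.4 and 44.1 RPKM (difference 0.18, SE 0.69, adjusted p = 0.956). Snhg5, host of the U50 snoRNAs, stood at 19.3 and 61.2 against 56.4 and 40.3 RPKM (0.45, SE 0.61, adjusted p = 0.875). In both, as in Gas5, KAI1 knockdown replicate 1 was the higher of the pair. Snhg7 had the largest difference of the 8, at 3.56 and 11.4 against 14.4 and 8.15 RPKM (0.66, SE 0.59, 95% interval -0.92 to 2.24, adjusted p = 0.834).

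Snhg6 and Snhg12 were the 2 hosts with a negative difference. Snhg6 stood at 97.5 and 255 against 123 and 153 RPKM (-0.20, SE 0.54, adjusted p = 0.935). Snhg12, which carries 3 H/ACA snoRNAs and 1 C/D snoRNA in the tables, stood at 26.3 and 51.8 against 29.2 and 29.7 RPKM (-0.32, SE 0.39, adjusted p = 0.864). Snhg8 had the narrowest interval, at 44.6 and 62.2 against 61.3 and 57.4 RPKM (0.17, 95% interval -0.58 to 0.91, adjusted p = 0.898).

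Over the 8 hosts the median difference was 0.17, against 0.028 over all entries. Without control replicate 1 it was -0.61, against 0.031 over all entries, and without control replicate 2 it was 1.13, against 0.026. All 8 intervals hold 0 and differences in both directions, so a miss of the threshold does not show that the hosts were alike in the groups.

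**Figure D2:**
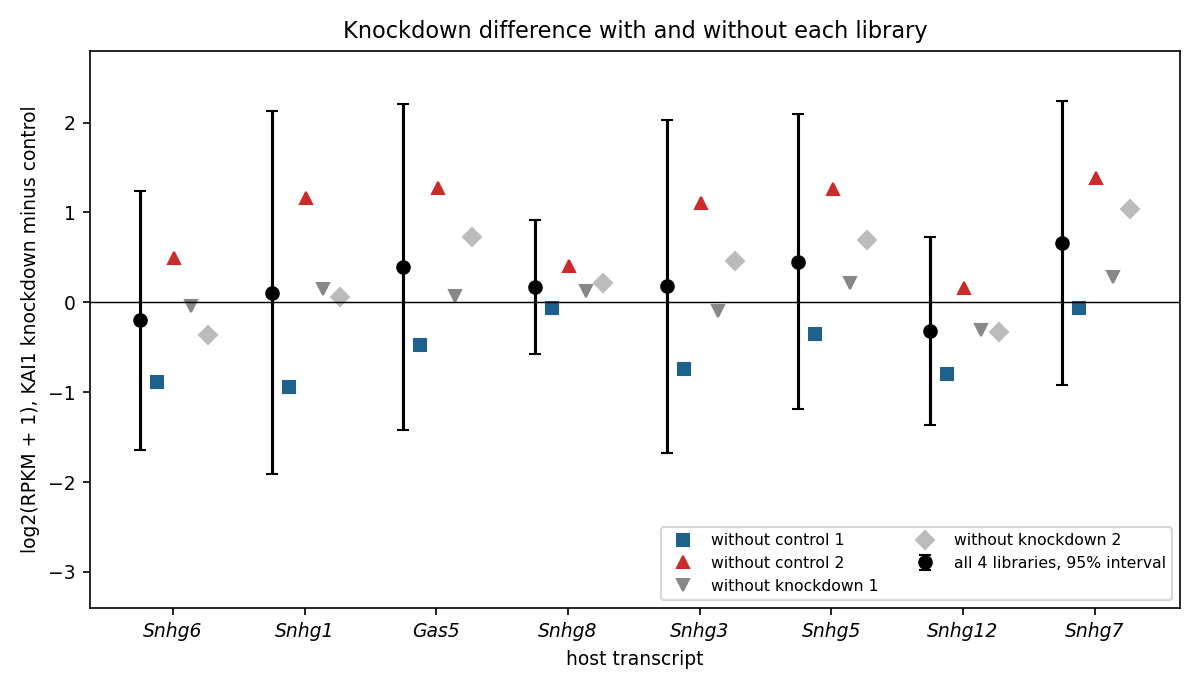
Difference of log2(RPKM + 1) between KAI1 knockdown and control for each host, with all 4 libraries (black, bars are limma 95% intervals) and with each library left out in turn. All intervals cross 0; the values without control replicate 1 (blue) are negative and those without control replicate 2 (red) positive for all 8 hosts.

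The overexpression arm has 1 library a side and no test. None of the 8 hosts was at least 2-fold apart on the RPKM + 1 scale, where 4.92% of 9936 entries were higher by that much and 5.21% lower. At these shares the count does not set the 8 hosts apart from all entries. Snhg12 differed most, from 52.0 RPKM in the overexpression control to 31.4 RPKM with KAI1 overexpressed, 1.63-fold lower. Snhg8 went from 85.5 to 60.8 RPKM, 1.40-fold lower, and Snhg5 from 41.0 to 33.3 RPKM, 1.22-fold lower. Snhg7 stood at 11.7 and 9.80 RPKM and Gas5 at 99.0 and 92.6 RPKM. Snhg1 was higher, at 140 against 159 RPKM (1.14-fold), and Snhg3 (68.5 and 70.0 RPKM) and Snhg6 (156 and 158 RPKM) were nearly level. The median log2 ratio was -0.17 over the hosts and 0.0057 over all entries.

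**Figure D3:**
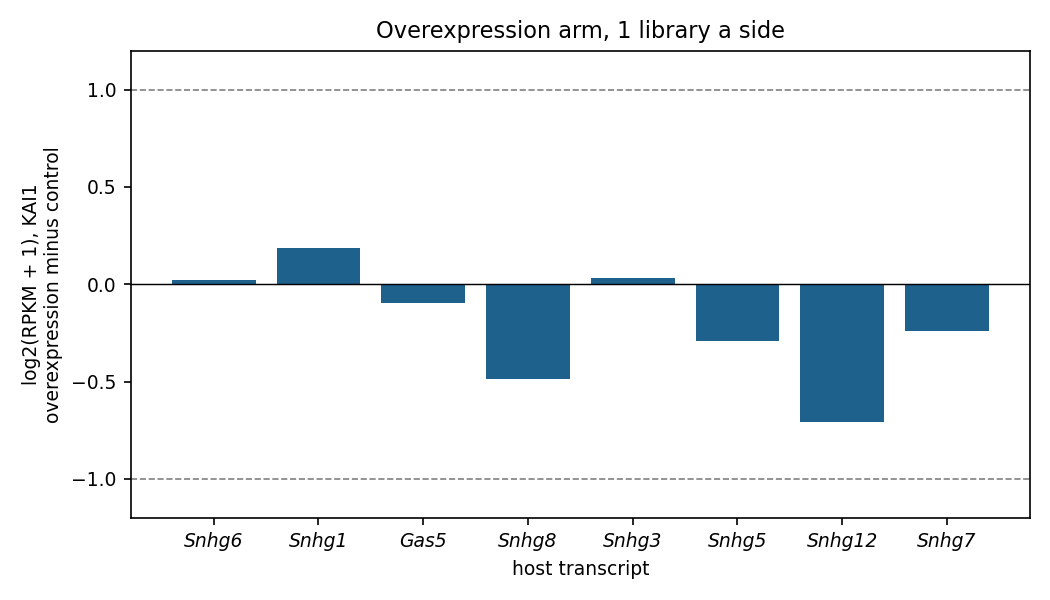
Difference of log2(RPKM + 1) between the KAI1 overexpression library and its control for each host; bars start at 0 and dashed lines mark 2-fold. No bar reaches a dashed line, and Snhg12 at -0.71 lies nearest.

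The likeness of the hosts to each other was lower when control replicate 1 was left out. Over the 28 pairs of hosts, Pearson's r of log2(RPKM + 1) across the 6 libraries had a median of 0.76 (0.46 to 0.99); without control replicate 1 it had a median of 0.37 over 5 libraries (-0.19 to 0.96). The points share library and depth, and the values are a description. Gas5 and Snhg5 were the pair that kept closest, with r = 0.99 over 6 libraries and 0.96 over 5. Snhg1 and Snhg6 had r = 0.92 and 0.93. Snhg8 and Gas5 had r = 0.55 over 6 libraries and -0.16 over 5.

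The snoRNAs cut from these hosts were counted as entries of their own, 9 of them within the spans of 5 hosts (Gas5, Snhg1, Snhg6, Snhg7 and Snhg12). The reads behind their RPKM are not given. The lowest whole counts that match the values, to a relative tolerance of 0.02, reach 32 in a library. Larger counts would fit as well, so these are lower limits, and the true reads may be many more. The snoRNA reads given below are these lowest counts. The 2 printed here are the C/D snoRNA Snord47, from an intron of Gas5 (GRCm38 chr1:161038082-161038158), with its C and D boxes in capitals, and the H/ACA snoRNA Snora61, from Snhg12 (GRCm38 chr4:132310240-132310369), with its ACA box in capitals; both sequences are GENCODE transcripts.

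Snord47: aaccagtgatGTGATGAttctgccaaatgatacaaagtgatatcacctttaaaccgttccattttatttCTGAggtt
Snora61: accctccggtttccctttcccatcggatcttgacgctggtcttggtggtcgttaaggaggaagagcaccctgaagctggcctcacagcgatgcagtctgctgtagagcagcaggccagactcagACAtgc

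At these lowest counts, Snord47 had 0 and 1 reads in the control pair, 0 and 8 with KAI1 knocked down, 15 in the overexpression control and 5 with KAI1 overexpressed. Its host Gas5 was highest in the libraries with 1 and 0 of these reads, control replicate 2 and KAI1 knockdown replicate 1. These are the shallowest libraries, at a relative depth of 0.52 and 0.67. The reads are not scaled to depth, so they cannot be set directly against the RPKM of the host. Snora61, with the highest of these lowest counts in a single library, had 4 and 9 reads in the control pair and 8 and 3 with KAI1 knocked down. It had 32 in the overexpression control and 10 with KAI1 overexpressed. The overexpression control was also the library where its host Snhg12 was highest, at 52.0 RPKM. Snord22, in Snhg1, had 5 and 6, 7 and 0, 18 and 15 reads in the same order, Snora17, in Snhg7, had 1 and 1, 4 and 5, 5 and 4, and Snord99, in Snhg12, was at 0 throughout. Summed over the 9 entries, the lowest counts came to 12 in control replicate 1 and 24 to 84 in the other libraries. The overexpression control, the deepest library, was at the top. How far each count lies below the true reads may differ by entry, so the sums are not sums of reads. The size range that library preparation kept is not given.

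Growth state was read from lists of genes, set beside the hosts as the median over each list of log2(RPKM + 1) centred on each gene's own mean over the 6 libraries. The hosts stood at -1.02 in control replicate 1 and 0.65 in control replicate 2, at 0.11 and -0.096 with KAI1 knocked down, at 0.25 in the overexpression control and 0.035 with KAI1 overexpressed. Genes of G1/S and replication stood at -0.39 in control replicate 1 and between -0.16 and 0.22 elsewhere, and 12 of 16 were lowest there. Genes of G2/M stood at -0.53 in control replicate 1 and 8 of 12 were lowest there. Genes of arrest and quiescence stood at 0.50 there, and 1 of 9 measured was lowest there. Of all entries 28.6% were lowest in control replicate 1. Whether the host pattern and these lists depend on each other was not tested, and mast cell markers, at 2.91 in control replicate 1 against -1.35 to 0.45 elsewhere, differed in the same library.

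**Figure D4:**
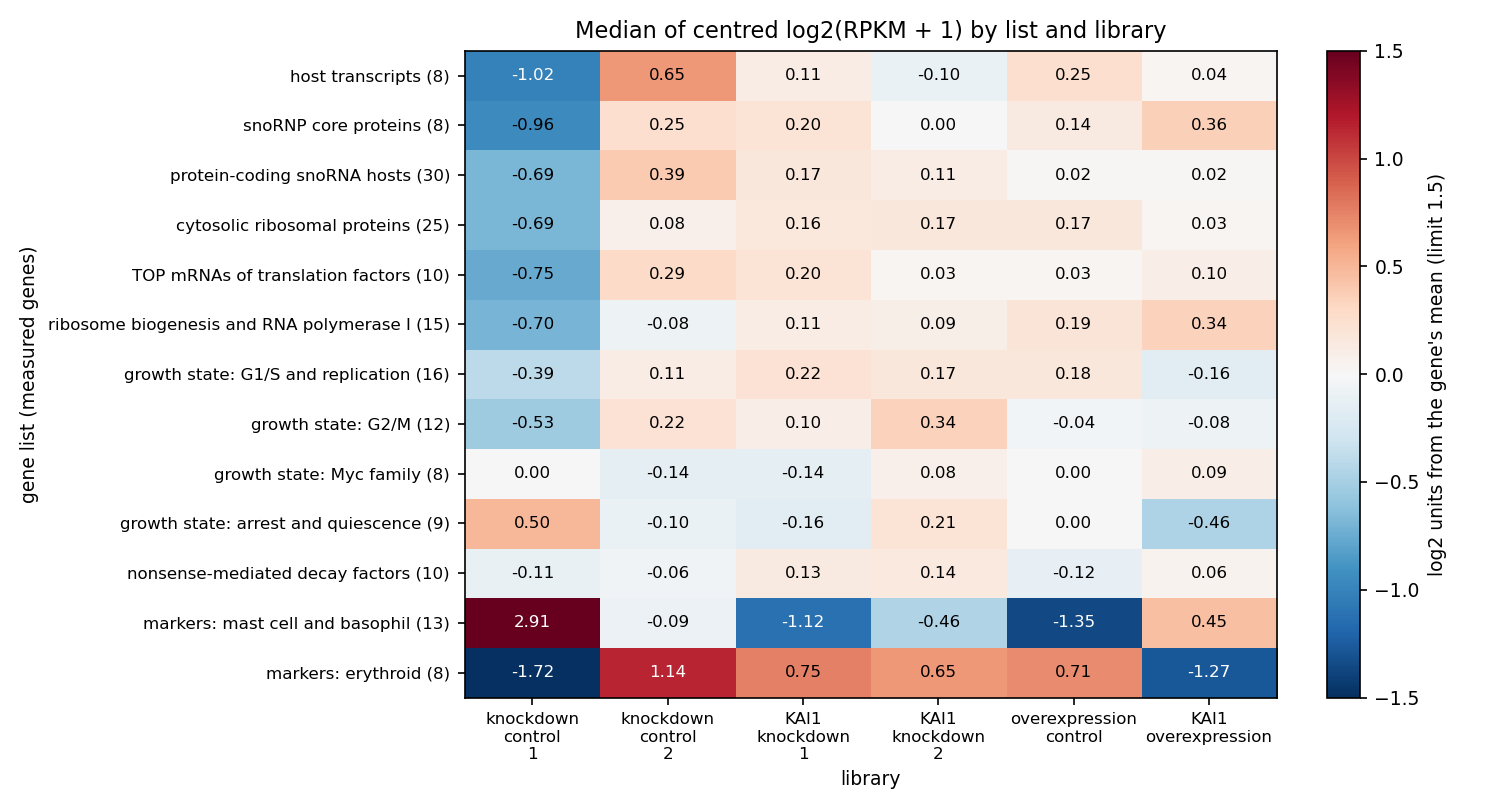
Median of centred log2(RPKM + 1) for the hosts and for gene lists (rows, number of measured genes in brackets) in each library (columns); blue is below and red above each gene's mean over the 6 libraries. The hosts at -1.02 and the snoRNP proteins at -0.96 are low in knockdown control replicate 1, where mast cell markers stand at 2.91.

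Mcm7, a subunit of the replicative helicase, stood at 87.6 RPKM in control replicate 1 and at 144 to 220 RPKM in the other 5 libraries, and Top2a, the topoisomerase of mitotic chromosomes, at 73.0 RPKM against 64.8 to 142 RPKM. Birc5, which encodes survivin of the chromosomal passenger complex, stood at 117 RPKM there against 114 to 155 RPKM, and Pcna, the sliding clamp of DNA polymerases, at 136 RPKM there against 133 to 173 RPKM. Cdkn1a, which encodes the CDK inhibitor p21, stood at 628 RPKM there against 187 to 412 RPKM. Txnip, a thioredoxin inhibitor, stood at 73.0 RPKM there against 43.0 to 81.4 RPKM, and the cyclin gene Ccng2 at 7.57 against 7.12 to 17.6 RPKM, while the antiproliferative gene Btg2 was lowest there, at 0.62 against 1.12 to 19.9 RPKM. The listed arrest genes therefore did not all run opposite to the hosts. Of the other genes named for growth arrest, Gas2 stood at 0.90 RPKM there against 0.24 to 1.31 RPKM, Gas7 stood at 26.2 RPKM in control replicate 1 against 1.49 to 6.44 RPKM, Gas6 was at 0 in all libraries and Gas1 reached 0.012 RPKM. Myc, a growth regulator of ribosome synthesis genes, stood at 12.2 RPKM in control replicate 1 against 23.5 to 43.0 RPKM, while the 8 measured Myc family genes as a list stood at 0.004 there. The family members of higher mean, Mxd3 (168 RPKM there against 164 to 226 RPKM) and Max (42.6 against 42.2 to 56.3 RPKM), were not lowest there. In the knockdown comparison limma called 0 of 16 G1/S genes, 0 of 12 G2/M genes and 0 of 9 arrest genes, with 7, 4 and 1 above both controls and 0, 0 and 2 below (21.5% of all entries were above and 17.0% below).

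The proteins that bind snoRNAs showed the same low library. All 8 snoRNP core genes were lowest in control replicate 1, with a median of -0.96 there. Fbl, the methyltransferase of box C/D particles, stood at 117 and 231 RPKM in the control pair, 274 and 254 RPKM with KAI1 knocked down, 301 RPKM in the overexpression control and 330 RPKM with KAI1 overexpressed. Nhp2, a subunit of H/ACA particles, stood at 130 and 275, 300 and 315, 319 and 349 RPKM in this order. Of the hosts 0 of 8 separated the groups, and 3 of 8 snoRNP genes lay above both controls in the knockdown, where 21.5% of all entries did, with a median of 0.55 and 0 of 8 called; the difference between the lists was not tested.

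The TOP mRNAs of translation factors, 7 of 10 lowest in control replicate 1, stood at -0.75 there, and the cytosolic ribosomal protein genes, 24 of 25 lowest there, at -0.69. Rpl32, of the large ribosomal subunit, stood at 5366 RPKM there against 8055 to 13062 RPKM, and Rps14, of the small subunit, at 5075 RPKM there against 8927 to 10505 RPKM. Rack1, a ribosomal scaffold protein and itself a snoRNA host, stood at 1529 and 3541 RPKM in the control pair and 3116 and 2995 RPKM with KAI1 knocked down. Eef1a1 (1764 RPKM in control replicate 1 against 1700 to 2742 RPKM) and Tpt1 (1697 against 1417 to 2018 RPKM), also on the TOP list, were not lowest there. The list of protein-coding snoRNA hosts shares Rpl3, Rpl4, Rpl5 and Rps3 with the ribosomal protein list and Rack1, Eef2 and Tpt1 with the TOP list. It also shares Nop56 and Nop58 with the snoRNP genes, so the counts of these lists are not separate. Of 30 protein-coding snoRNA hosts 27 were lowest in control replicate 1, where 28.6% of all entries were lowest. In the knockdown 8 lay above and 2 below both controls, with 0 called (21.5% of all entries were above and 17.0% below). Genes of ribosome biogenesis and RNA polymerase I had 11 of 15 lowest in control replicate 1. Among them was Npm1, a nucleolar chaperone also on the TOP list, at 264 RPKM there against 682 to 986 RPKM. In the knockdown 9 of these 15 lay above both controls and 0 below (21.5% of all entries were above and 17.0% below), with a median of 0.48 and 0 called.

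Factors of nonsense-mediated decay stood at -0.11 in control replicate 1, less low than the hosts. Of 10 factors 5 were lowest there, where 28.6% of all entries were lowest. In the knockdown 4 factors lay above both controls (0 called, and 21.5% of all entries were above). Of the 3 most abundant, Upf3b stood at 22.7 RPKM in control replicate 1 and 19.6 to 25.2 RPKM elsewhere, Smg5 at 14.0 against 17.1 to 21.4 RPKM and Smg9 at 17.9 against 11.9 to 21.0 RPKM. Upf1, the helicase of this pathway, was lowest in control replicate 2, at 8.52 RPKM, while its partner Upf2 was highest there, at 8.46 RPKM, and lowest in control replicate 1, at 4.63 RPKM. The factors thus did not share a direction between the controls. Of mRNAs known as substrates of this decay, Atf4, a transcription factor of the stress response, stood at 658 and 535 against 348 and 382 RPKM, and Ddit3 at 449 and 144 against 128 and 149 RPKM. Both were highest in control replicate 1, but Tbl2 (5.76 RPKM there against 7.38 to 11.8 RPKM) and Gadd45a (1.52 against 1.53 to 4.17 RPKM) were lowest there. These substrates thus did not share a direction, and the 5 measured as a list stood at a median of -0.41 in that library.

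Nr3c1, the glucocorticoid receptor, stood at 9.30 and 6.59 RPKM in the control pair, 4.52 and 5.32 RPKM with KAI1 knocked down, 4.74 RPKM in the overexpression control and 7.05 RPKM with KAI1 overexpressed. Tsc22d3, an induced target of the receptor, stood at 72.8 RPKM in control replicate 1 and 11.8 to 21.9 RPKM in the other 5 libraries. Zfp36, an mRNA decay factor on the same list, stood at 69.3 RPKM there against 6.81 to 51.9 RPKM elsewhere. Dusp1, also on this list, stood at 26.8 RPKM there against 3.371 to 6.999 RPKM, and Per1 at 4.72 RPKM against 2.36 to 5.12 RPKM. Another target, Fkbp5, was lowest in control replicate 1, but only just, at 16.7 RPKM against 17.1 to 21.7 RPKM. The 6 measured genes as a list stood at 0.93 in control replicate 1 and between -0.24 and -0.068 elsewhere. Tsc22d3, Zfp36 and Dusp1 were thus highest there, while Per1 and Fkbp5 were not. Of the 6 measured genes of this list limma called 0 in the knockdown, with 1 above and 2 below both controls (21.5% of all entries were above and 17.0% below).

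Other noncoding snoRNA hosts did not all have this pattern. Of 8 averaging at least 1 RPKM across libraries, 5 were lowest in control replicate 1 (28.6% of all entries were), with a median of -0.59 there. Epb41l4aos stood at 46.2 and 118 RPKM in the control pair and 76.9 and 80.8 RPKM with KAI1 knocked down, again between the controls. Snhg9 stood at 479 and 392 RPKM against 667 and 351 RPKM, and at 1155 RPKM in the overexpression control and 644 RPKM with KAI1 overexpressed. Snhg20 stood at 84.1 and 102 against 91.8 and 112 RPKM and at 81.3 and 267 RPKM in the overexpression arm. Snhg15, named after its values were seen, had 50.1 RPKM in control replicate 1 against 70.4 to 123 RPKM. Snhg10, named in the same way, went in the other direction and was highest there, at 25.8 RPKM against 12.1 to 19.7 RPKM.

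No other entry longer than a small RNA overlapped a host in the tables, and the nearest neighbour of each was looked up after the values were seen. Slc3a2, the heavy chain of amino acid transporters, lies 117 bases from Snhg1 on mm9, head to head with it on the opposite strand, per GENCODE. It stood at 373 and 125 RPKM in the control pair, where Snhg1 stood at 49.9 and 218 RPKM, so the neighbours differed in opposite directions. Trnau1ap, 738 bases from Snhg12 and on the opposite strand, stood at 13.9 and 24.8 RPKM in the controls, in the same direction as its host. Zbtb37, 906 bases from Gas5 on the opposite strand, stayed at or below 0.728 RPKM in all libraries, and Phactr4, 2237 bases from Snhg3, stood at 9.38 to 10.9 RPKM. Whether the libraries keep strand is not given in the labels.

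The entries most like the mean host pattern, by Pearson's r of log2(RPKM + 1) over the 6 libraries among 5168 entries averaging 10 RPKM or more, were Gm6402, Gmnn, Prpf38a, Thyn1 and Ran, with r from 0.991 to 0.996. Gmnn encodes geminin, an inhibitor of replication licensing, and Ran the GTPase of nuclear transport. Ran stood at 127 and 306 RPKM in the control pair, 237 and 185 RPKM with KAI1 knocked down, 239 RPKM in the overexpression control and 220.1 RPKM with KAI1 overexpressed. For Gas5 alone they were Luc7l3, Mrpl57, Lsm3, Anp32b and Mrpl42, with r of 0.99 each, of which Lsm3 belongs to the U6 particle of the spliceosome. Lsm3 stood at 161 and 435, 396 and 302, 293 and 272 RPKM in the same order. Without control replicate 1 the r of these 10 was 0.966 to 0.985 over 5 libraries. They are the highest of many values over few libraries and are given as a description.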

How the data were processed

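The authors deposited, for each of 6 EML libraries, a table of RPKM per transcript entry, per the file headers; RPKM are reads relative to transcript length and mapped reads. Named in the submitters' processing notes are TopHat2 2.0.9, Bowtie, Cufflinks and mm9; settings are not. Each table held 23170 entries; 24 repeats were dropped. Entries were named by a RefSeq table (22840) and GENCODE M21 (125). Both are of GRCm38, so entry coordinates are the tables' own, on mm9, made 1-based. Gas5 shares its entry with a second accession that neither table names. The design allowed for FPKM or RPKM, and the headers say RPKM.

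Differences are on log2(RPKM + 1), which understates the change of low genes. The knockdown was tested with limma 3.58.1 (R 4.3.3, two-sided, mean-variance trend, no covariates) on entries averaging 1 RPKM or more across its 4 libraries, with Benjamini-Hochberg adjustment over all of them and a threshold of 0.05; the fit was tested on simulated data. The overexpression arm has 1 library a side and no test. Low values that step by single reads gave the relative depth. The deposited values are scaled to length and depth, so no count test was run. All 8 hosts passed the filter. The hosts, lists and tests were chosen with earlier results of these data known. Of each other list, the rule named the 3 genes of highest mean, not all of which are given in the text. Other genes in the text were named after their values were seen. The lists not described in the text were markers: stem and progenitor genes summed to 1253 RPKM in control replicate 1, mostly Ly6a and Kit, and 327 to 480 RPKM elsewhere, while Cd34 and Meis1 were lowest there. Neutrophil and monocyte genes summed to 1091 RPKM there, mostly Ctsg, and 912 to 1728 RPKM elsewhere, with 5 of 6 measured lowest there. Megakaryocyte genes summed to 1800 RPKM there, mostly Pf4, and 292 to 1230 RPKM elsewhere, with a list median of -0.92 there; macrophage and stromal genes summed to at most 3.22 RPKM.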

Additional observations from a re-analysis of the deposited data

How the results depend on the processing

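With all 4 libraries kept, the 8 hosts held their direction and stayed uncalled in all 56 values over 7 alternatives (pseudocount 0.1, no filter, a mean of at least 5 RPKM, quantile normalization, median of ratios, no trend, replicate block), with adjusted p from 0.825 to 0.9989. The count of entries called in the knockdown was 3, and 5 with a pseudocount of 0.1; with no filter limma called 0 (683 at an unadjusted p under 0.05), where more entries were tested. With the replicate block it was 4. The replicate numbers could not be shown to pair the libraries: the deviations of same-numbered libraries had a correlation of -0.0754, and the block changed no host's call (adjusted p = 0.9989 for all 8). Leaving out 1 library gave 0 to 1045 calls: 16 without control replicate 1, 1045 without control replicate 2, and 0 without KAI1 knockdown replicate 1 or 2 (88 and 58 at an unadjusted p under 0.05). Such a fit has 1 group of 1 library, which is assumed to vary like the other group. The hosts' differences then ranged from -0.48 to 1.27 for Gas5, -0.95 to 1.16 for Snhg1, -0.74 to 1.10 for Snhg3, -0.35 to 1.26 for Snhg5, -0.89 to 0.49 for Snhg6, -0.061 to 1.38 for Snhg7, -0.067 to 0.40 for Snhg8 and -0.79 to 0.16 for Snhg12, and all 8 took both signs. The lowest values are those without control replicate 1 and the highest those without control replicate 2; Snhg3 was also negative without KAI1 knockdown replicate 1 (-0.098). In the overexpression arm 1007 entries were at least 2-fold apart, and 654 when entries had to average 5 RPKM; none of the 32 host values under other settings reached 2-fold.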

Other observations

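Dancr, another noncoding snoRNA host, was named after its values were seen. It stood at 4.67 and 12.8 RPKM in the control pair, 7.37 and 93.7 RPKM with KAI1 knocked down, 87.0 RPKM in the overexpression control and 16.5 RPKM with KAI1 overexpressed. KAI1 knockdown replicate 2 and the overexpression control thus stood apart from the other 4 libraries, a pattern that none of the 8 hosts had. Dancr was highest in KAI1 knockdown replicate 2. Snord47, Snhg9 and Epb41l4aos had their highest value in the overexpression control, as did the hosts Snhg8 and Snhg12. Snhg4 stood at 3.69 RPKM in control replicate 1 and at 12.8 to 17.5 RPKM in the other 5 libraries, so it too was lowest there, but unlike the hosts it had both knockdown libraries above both controls.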
